A study of Homo sapiens with 34 samples.

Results

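The 6 H3K4me2 libraries of a chromatin immunoprecipitation sequencing (ChIP-seq) series of 34 samples were examined for the effect of RUNX1T1 depletion. KELLY is an established human neuroblastoma cell line with amplified MYCN. In every library the cells carried a hairpin RNA targeting RUNX1T1 whose expression doxycycline induces. They received DMSO, the solvent (3 libraries), or Doxycycline, which switches the hairpin on (3 libraries), and were fixed after 72 h. There was no doxycycline-treated group without the hairpin, so an effect of doxycycline itself and of RUNX1T1 loss cannot be told apart. The labels do not say whether replicates came from separate cultures, so p-values measure only the spread between these libraries. The members were the H3K4me2 peaks of these libraries on chromosomes 1 to 22 and X, 398627 of the 2177214 peaks in the 30 lists of the series.

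Dimethylation of lysine 4 on histone H3 marks both promoters and enhancers, flanking the nucleosome-poor DNA where factors bind. It lies between H3K4me1, typical of enhancers, and H3K4me3, typical of active promoters. LSD1, encoded by KDM1A, removes mono- and dimethyl groups from this lysine, and acts with CoREST proteins and histone deacetylases in a repressor complex to which RUNX1T1, a corepressor of the ETO family, has been linked. H3K27ac marks active elements and H3K27me3 marks repression by Polycomb.

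Sequences of a few regions, picked as examples, illustrate a contrast in base composition to which the results below return. Each line holds 200 bases of the plus strand of hg38 centred on a summit, in lower case, with CG dinucleotides in capitals. The first pair lies in introns of TLN2, a cytoskeletal linker, and HDAC9, a histone deacetylase, at chr15:62612665-62612864 and chr7:18445572-18445771, where all 3 DMSO libraries had an H3K4me2 peak and no doxycycline library did. The second pair lies in an intron of the pseudogene LINC01667 at chr21:9829643-9829842, where only the 3 doxycycline libraries had one, and in intergenic sequence near FOXD2, a forkhead transcription factor, at chr1:47444822-47445021, which rose in rank in doxycycline. The first pair held 2 CG pairs each and the second 18 and 19. Other regions did not follow this contrast. The doxycycline-only region next in rank, at NCF4, held 2 CG pairs around its summit. A region near FCGR2A, which fell in rank in doxycycline by another measure, held 26.
TLN2: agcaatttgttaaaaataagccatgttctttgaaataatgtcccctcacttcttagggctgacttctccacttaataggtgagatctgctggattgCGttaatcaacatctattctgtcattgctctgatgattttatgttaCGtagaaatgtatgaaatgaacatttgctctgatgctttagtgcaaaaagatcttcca
HDAC9: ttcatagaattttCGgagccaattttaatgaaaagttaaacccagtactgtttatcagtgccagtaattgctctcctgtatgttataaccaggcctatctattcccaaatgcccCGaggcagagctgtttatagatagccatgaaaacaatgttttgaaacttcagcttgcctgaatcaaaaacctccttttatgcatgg
LINC01667: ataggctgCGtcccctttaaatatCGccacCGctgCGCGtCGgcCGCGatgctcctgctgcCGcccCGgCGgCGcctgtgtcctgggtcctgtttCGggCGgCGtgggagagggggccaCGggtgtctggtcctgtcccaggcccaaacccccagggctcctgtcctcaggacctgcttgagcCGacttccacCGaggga
FOXD2: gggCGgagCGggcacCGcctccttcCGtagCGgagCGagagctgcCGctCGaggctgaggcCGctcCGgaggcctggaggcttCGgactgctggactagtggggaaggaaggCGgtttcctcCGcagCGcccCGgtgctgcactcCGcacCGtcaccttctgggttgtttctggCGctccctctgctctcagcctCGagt

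Differences between the libraries bear on every value. Replicate 1 of each treatment had the longest list, with 88427 peaks in DMSO and 86420 in doxycycline, against 51860 to 61379 in the other 4. DMSO replicate 3 had the narrowest and weakest peaks, with a median fold enrichment over input of 5.36 at start sites against 7.55 to 15.2 in the other 5 libraries. Of 79949 merged regions away from start sites, 42372 were seen only in replicate 1 of either treatment. The calling depth, the smaller of the ChIP and input reads, was 74.5 to 78.2 M in DMSO and 57.0 to 63.4 M in doxycycline. The ChIP reads overlapped, at 76.2 to 85.2 M and 66.9 to 80.0 M. The input reads did not, at 74.5 to 81.5 M and 57.0 to 63.4 M. Calling depth thus separated the treatments, and its effect cannot be told apart from that of treatment. Of 12 neuroblastoma marker genes, 11 had H3K4me2 at a start site in all 6 libraries, HAND2 being the exception, against 71.8% of all protein-coding genes. None of 6 liver and none of 6 blood markers had it in all 6, although SPI1 had it in 5 libraries. Of 6 skeletal muscle markers 4 had it in all 6, as did 2 of 6 melanocyte and 2 of 6 epithelium markers.

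The first comparison asked whether depletion of RUNX1T1 altered how much H3K4me2 was called at promoters. The number of start-site peaks was similar in the 2 treatments, and most genes kept the mark. Start sites were those of protein-coding transcripts, with a window of 1 kb either side. DMSO libraries 1, 2 and 3 had 23440, 21807 and 25205 such peaks. The doxycycline libraries had 23411, 23393 and 24713, so the groups overlapped. The log2 difference was 0.024 (exact permutation p = 1, adjusted over 11 values p = 1). With 3 libraries against 3 the smallest p possible is 0.1.

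Genes with H3K4me2 at a start site numbered 15581, 14901 and 14529 in DMSO and 15909, 14845 and 15102 in doxycycline. The means were 15004 ± 533 (SD, n = 3) and 15285 ± 555, and the exact permutation test gave p = 0.6 (adjusted p = 1). Of 19970 protein-coding genes, 14338 (71.8%) had the mark in all 6 libraries and 3932 in none. Regions present in all 3 libraries of a treatment were 18443 for DMSO and 17746 for the doxycycline group (exact permutation p = 1 for a log2 ratio of −0.056).

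The peaks at start sites were broad. Their median width was 1580, 1319 and 873 bp in DMSO and 1546, 1174 and 1197 bp in doxycycline, with DMSO replicate 3 the narrowest. The log2 difference of 0.085 was smaller than the spread between replicates (exact permutation p = 0.9, adjusted p = 1). Summits did not sit on the start site but on both sides of it. The bin from 500 to 250 bp upstream held 15.4 ± 0.447% of the summits within 2 kb in DMSO and 14.6 ± 1.73% in doxycycline (SD, n = 3 libraries each). The bin just upstream of the start held 5.13 ± 0.196% and 5.60 ± 0.671%. The downstream shoulder, from 500 to 750 bp downstream, held 13.8 ± 0.598% and 13.6 ± 0.543%. None of these shares separated the treatments (exact permutation p = 0.7, 0.4 and 0.6, adjusted p = 0.933 each, over 4 values).

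**Figure D1:**
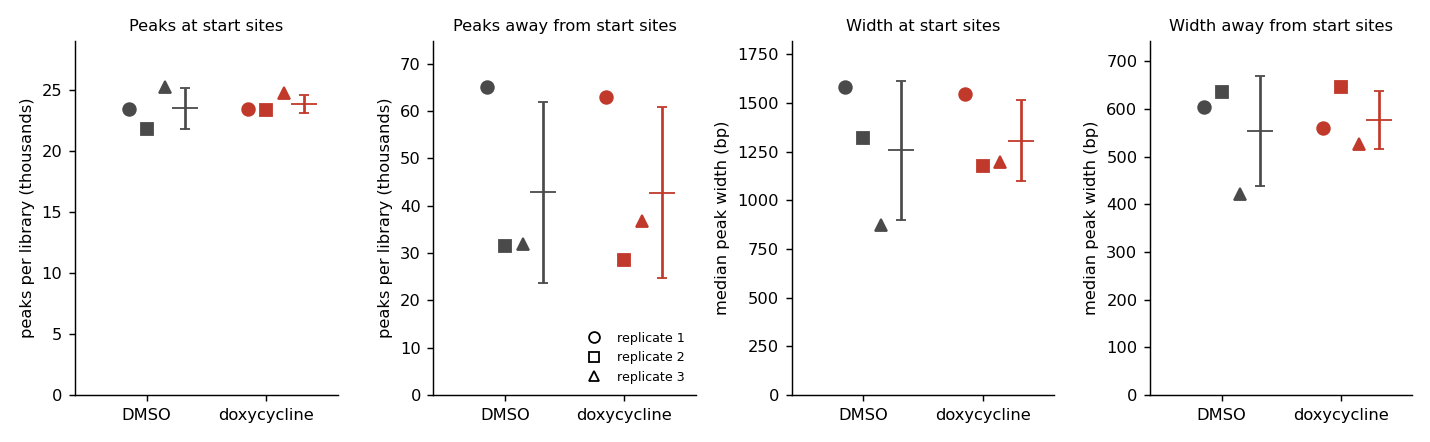
H3K4me2 peaks per library at and away from protein-coding start sites (units of 1000, 2 left panels) and their median width (bp, 2 right panels) in DMSO and doxycycline. Marker shapes give the replicate, and bars the mean ± SD of 3 libraries. The treatments overlap in each panel, and replicate 1 has 64987 and 63009 peaks away from start sites against 28467 to 36666 in the other libraries.

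**Figure D2:**
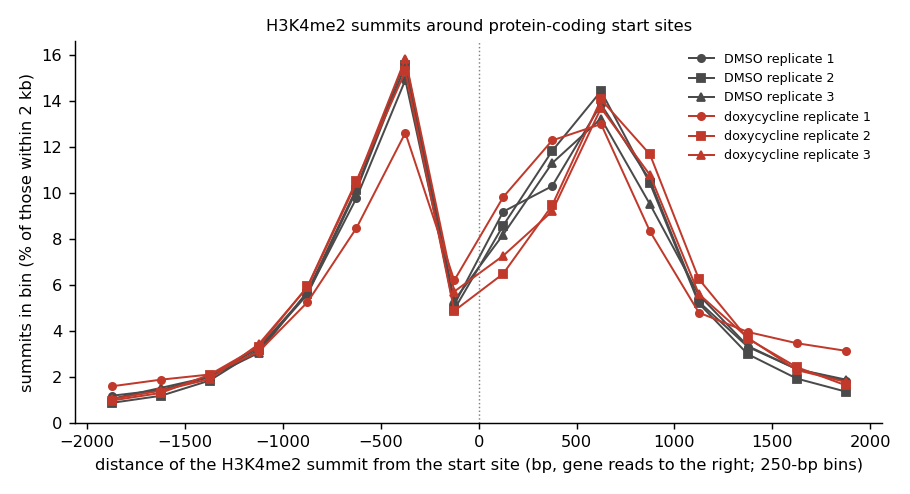
Position of H3K4me2 summits relative to the canonical start site of protein-coding genes (bp, bins of 250 bp), as a percentage of the summits within 2 kb, with a line for each of the 6 libraries. The 6 lines share 2 shoulders with a dip just upstream of the start, and doxycycline replicate 1 is lowest at the upstream shoulder, with 12.6%.

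Away from start sites the libraries differed more by replicate than by treatment. DMSO libraries had 64987, 31582 and 31947 such peaks and doxycycline libraries 63009, 28467 and 36666 (log2 difference 0.0015, exact permutation p = 1). Their median width was 604, 635 and 421 bp in DMSO and 560, 645 and 527 bp in doxycycline (exact permutation p = 0.8, adjusted p = 1). Regions shared by the 3 libraries of a treatment numbered 18201 and 19170 (log2 ratio 0.075, exact permutation p = 0.8). The share of peaks at start sites was 37.2 ± 9.36% in DMSO and 37.5 ± 9.32% in doxycycline (exact permutation p = 0.9). Among the regions called in all 6 libraries, ranked within each library, those at start sites stood above the others by fold enrichment. The gap between the medians was 36.5 ± 1.83 percentiles in DMSO and 34.8 ± 2.45 in doxycycline (exact permutation p = 0.5, adjusted p = 1).

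The base pairs shared between 2 libraries were a larger part of their union at start sites than away from them. The Jaccard index, which is that part, ranged from 0.517 to 0.807 at start sites and from 0.241 to 0.580 away from them over 6 comparisons of libraries within a treatment and 9 between treatments. Its mean was 0.687 within a treatment and 0.705 between treatments at start sites, and 0.413 and 0.426 away from them.

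The targeted gene, RUNX1T1, kept H3K4me2 at its start sites in all 6 libraries. The region had a highest fold enrichment of 14.8, 10.97 and 6.49 in the DMSO libraries. In the doxycycline libraries it was 24.97, 7.60 and 12.4. Doxycycline replicate 1 was the highest and the groups overlapped. The rank of the region among those shared by all 6 lists did not pass the test (difference −0.19 normal scores, limma adjusted p = 0.907). A normal score is the rank of a region within its list turned into a standard normal value, and all such differences are doxycycline minus DMSO. A hairpin acts on the RNA, which these data did not measure, so the mark at the gene does not check the knockdown.

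HAND2, a transcription factor of sympathetic neurons, was the single neuroblastoma gene of the lists whose start-site call differed in every library. H3K4me2 came within 1 kb of an annotated HAND2 start in 0 of 3 DMSO and 3 of 3 doxycycline libraries. The distances behind that call were graded. The nearest peak lay 1411, 2068 and 2384 bp from any of 3 annotated starts in the DMSO libraries. In doxycycline it lay 0, 928 and 110 bp away. In doxycycline replicate 1 an upstream peak of 4260 bp with a fold enrichment of 12.3 reached to 330 bp from the canonical start, and a peak of 1382 bp inside the gene had 6.25. The calls of the other doxycycline libraries were small: 205 and 210 bp wide at 4.43 and 3.54 in replicate 3, and 261 bp wide at 3.47 in replicate 2. A peak upstream of the start was called in 6 of 6 libraries, and the nearest was 8985, 8060 and 1820 bp wide in the DMSO libraries. With a window of 2.5 kb HAND2 was called in 6 of 6 libraries, since the farthest DMSO peak lay 2384 bp away. H3K4me3 and H3K27ac were called at its start in 6 of 6 libraries, and H3K4me1 and H3K27me3 in none.

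**Figure D3:**
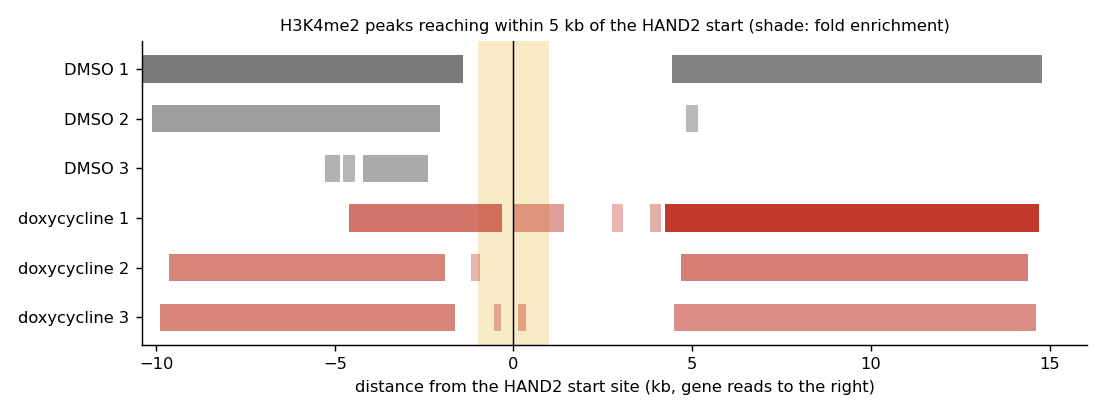
H3K4me2 peaks that reached within 5 kb of the HAND2 start site, by distance from it (kb, direction of transcription to the right), a row per library, with darker bars for higher fold enrichment. The shaded band is the window of 1 kb. Peaks over 1.8 kb wide lie upstream of the start in each library and broad peaks lie downstream in DMSO replicate 1 and the 3 doxycycline libraries. The band is empty in the 3 DMSO libraries and entered in the 3 doxycycline libraries, by a peak of 12.3 in replicate 1 and of at most 4.43 in the others.

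MYCN is amplified in these cells. H3K4me2 was called at its start in 1 DMSO library and in none of the others, and that peak, in replicate 3, had a pileup of 852 reads but a fold enrichment of 1.18. In the remaining 5 libraries the nearest peak lay 91908 to 346652 bp away. Input reads are also many over an amplified locus, and a missing call does not show that the mark was missing. MAX, the dimerization partner of MYC proteins, kept the mark in all 6 libraries, with fold enrichment of 8.31, 7.45 and 6.27 in DMSO and 16.4, 7.67 and 8.80 in doxycycline (difference in rank 0.04, limma adjusted p = 0.979).

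Other genes of the repressor complex also kept the mark. KDM1A had 11.5, 7.27 and 6.25 in DMSO and 18.5, 7.04 and 5.49 in doxycycline (rank difference −0.50, limma adjusted p = 0.662). RCOR3, which encodes CoREST3, had 13.5, 9.09 and 6.92 and then 15.1, 7.92 and 12.6 (−0.31, limma adjusted p = 0.830). Fold enrichment in doxycycline replicate 1 was the highest of the 6 for both genes, and ranks within a list were compared in its place.

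The gene lists are read against the 71.8% of all protein-coding genes with H3K4me2 in all 6 libraries. Among 22 adrenergic core transcription factors, 20 (90.9%) had it in all 6, with HAND2 and MYCN as the exceptions. Among 27 transcription factors of the mesenchymal state it was 26, the exception being PRRX1, called in 2 DMSO and 3 doxycycline libraries. Of 26 genes of LSD1-CoREST-HDAC complexes and the ETO family it was 25, the exception being CBFA2T3. For H3K4 methyltransferases and demethylases it was 24 of 25, PRDM9 having none. All 19 genes of catecholamine synthesis and storage, all 7 E protein and ID genes and all 25 MYC target and cell cycle genes had it in all 6. So did 34 of 35 neuronal differentiation genes and 12 of 13 genes of the MYC network, MYCN being the other. In each list no member passed the limma test of rank of fold enrichment, rank of pileup or width in either direction, where 0.00326%, 0.0684% and 0% of all regions did. The median difference in rank of fold enrichment was 0.06 in the adrenergic, 0.12 in the mesenchymal and −0.18 in the MYC target and cell cycle list, against −0.027 over all 16633 start-site regions.

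The second comparison asked which single places gained or lost the mark. Presence in 3 of 3 libraries of a treatment and 0 of 3 of the other was rare. Of 103040 merged regions, 300 (0.291%) were called in DMSO only and 185 (0.18%) in doxycycline only. At start sites 8 regions (0.0346%) were called in DMSO only and 19 (0.0823%) in doxycycline only. Away from them there were 292 (0.365%) and 166 (0.208%). With lists of equal length the order of the last counts turned, to 476 in DMSO only and 500 in doxycycline only. These peaks were weak. The median region of the 292 stood at the 34.0th percentile of fold enrichment in its lists, and that of the 166 at the 29.4th, against the 56.8th for the 14059 regions away from start sites that all 6 lists shared. The counts also turned on single libraries. DMSO-only regions away from start sites numbered 1041 without doxycycline replicate 1, 1378 without DMSO replicate 2, 1036 without DMSO replicate 3 and 513 without doxycycline replicate 3. Doxycycline-only ones numbered 1527 without DMSO replicate 1, 883 without doxycycline replicate 2 and 491 without doxycycline replicate 3.

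No gene had the mark at a start site in DMSO only, and 6 of 19970 (0.03%) had it in doxycycline only. With lists of equal length the counts were 4 and 29. The doxycycline-only count was 89 without DMSO replicate 1, 36 without doxycycline replicate 2 and 20 without doxycycline replicate 3, and the DMSO-only count 10 without doxycycline replicate 1, 9 without DMSO replicate 2, 2 without DMSO replicate 3 and 1 without doxycycline replicate 3. The 6 genes were HAND2, IRF8, SLFN11, FUT7, LYPD2 and SPAAR. IRF8 is a transcription factor of myeloid and B cells. Its region, on chromosome 16 from 85898539 to 85899366 over the start and a UTR, had fold enrichment of 11.7, 3.38 and 5.62 in the doxycycline libraries and no peak in DMSO. SLFN11, which arrests cells under replication stress, had 6.13, 5.43 and 2.88. FUT7, a fucosyltransferase, had 8.65, 3.83 and 3.50. IRF8, SLFN11 and SPAAR carried H3K27me3 at the start in 6 of 6 libraries and HAND2, FUT7 and LYPD2 in none. At SPAAR, a gene for a small peptide, the merged region was called in DMSO replicates 1 and 2 as well, at 4.64 and 3.16, with peaks that did not reach the window.

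Of the 19 start-site regions seen in doxycycline only, the highest ranked was at CBFA2T3, an ETO family corepressor and relative of RUNX1T1. It lay on chromosome 16 from 88901637 to 88903019, over coding sequence and an internal start, with fold enrichment of 9.75, 5.87 and 5.23. Another region of the 19, from 88882251 to 88884048, lay within 1 kb of another CBFA2T3 start. Over all its starts, CBFA2T3 had the mark in 2 DMSO and 3 doxycycline libraries, and H3K27me3 in 6 of 6. The next in rank were IRF8, SPNS3, a sphingolipid transporter family member (7.71, 4.26 and 5.24), RGS8, a regulator of G protein signalling (8.54, 4.13 and 4.43), and TRAF3IP2, an adaptor of interleukin-17 signalling (6.46, 3.82 and 5.52). In DMSO only, the highest were at MYO5A, a myosin motor (7.44, 4.35 and 4.40 in the DMSO libraries), HM13, a signal peptide peptidase (7.26, 4.96 and 4.003), TMOD3, an actin capping protein (6.26, 4.25 and 4.61), PDE11A, a phosphodiesterase (6.48, 3.15 and 4.37), and ABLIM1, an actin-binding protein (4.72, 3.92 and 3.55). None of these 5 had H3K27me3 in any library.

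Away from start sites the highest DMSO-only region was the TLN2 intron shown above, on chromosome 15 from 62611545 to 62613184, with fold enrichment of 8.49, 5.66 and 5.22 in DMSO and no peak in doxycycline. The HDAC9 intron (chromosome 7, 18445385 to 18446378) had 8.14, 4.16 and 6.49. The next were in introns of 2 noncoding RNA genes 775 kb from NRSN1 (7.03, 5.76 and 4.97), in an intron of CNTNAP2, a neuronal cell adhesion gene (8.68, 5.005 and 4.69), and in an intron of ABHD13 (9.09, 3.90 and 5.26). H3K27ac was called in all 3 DMSO libraries at each of the 5, and in 2, 1, 3, 3 and 0 doxycycline libraries in this order.

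The highest doxycycline-only region was that in LINC01667, on chromosome 21 from 9829248 to 9830079, with 11.7, 5.82 and 6.28 in doxycycline. At NCF4, a subunit of the phagocyte oxidase (chromosome 22, 36877440 to 36878552), the values were 12.5, 4.88 and 7.44. An intergenic region 2.83 kb from PFKFB3, a regulator of glycolysis, had 15.9, 4.76 and 6.79. An intron of KCNA2, a potassium channel, had 13.2, 4.26 and 8.03. An intergenic region 28.5 kb from MNX1, a motor neuron transcription factor, had 13.4, 5.97 and 5.04. Doxycycline replicate 1 was the highest in each of the 5. H3K27me3 was called in 6 of 6 libraries at 4 of the 5, KCNA2 being the exception, and H3K27ac in no DMSO library at any.

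The same marks were counted over the whole sets, after these regions had been seen. Of the 166 doxycycline-only regions away from start sites, 61 (36.7%, exact Clopper-Pearson 95% interval 29.4 to 44.6%) had H3K27me3 in 3 of 3 DMSO libraries. Of the 292 DMSO-only regions, 1 (0.342%, 0.00867 to 1.89%) had it. Among the 14059 shared by all 6 lists it was 7.48%. The intervals cover the counting of regions only. H3K27ac in 3 of 3 DMSO libraries was found in 13.3% of the doxycycline-only (22 of 166), 77.4% of the DMSO-only (226 of 292) and 78.9% of the shared regions. Leaving out each library in turn, the first share ranged from 13.1 to 37.1%, the highest without DMSO replicate 1, and the share of DMSO-only regions from 55.4 to 78.0%, the lowest without DMSO replicate 2.

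The other marks were then counted at these places. At the DMSO-only regions H3K27ac was called in 84.6 to 92.5% in the DMSO and 44.5 to 48.3% in the doxycycline libraries. At the doxycycline-only regions it was called in 16.3 to 30.1% and 41.6 to 51.2%. At the shared regions the ranges were 81.0 to 86.4% and 76.7 to 83.2%. H3K4me1 stayed over most of the DMSO-only regions, in 91.1 to 98.3% in doxycycline. H3K27me3 over the doxycycline-only regions was as frequent in doxycycline, 38.0 to 44.6%, as in DMSO, 37.3 to 42.8%.

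Base composition moved with the result. The median GC content was 41.1% in DMSO-only, 55.8% in doxycycline-only and 51.7% in shared regions away from start sites. Its part in the result was not tested by these sets. Without doxycycline replicate 1 the DMSO-only median was 47.4%, and the doxycycline-only median 56.2%. Leaving out each library in turn, H3K27me3 in 3 of 3 DMSO libraries was found in 15.5 to 36.7% of doxycycline-only and 0.195 to 0.865% of DMSO-only regions, with the lowest value, 15.5%, without DMSO replicate 1. At a −log10 q of 10 or more in every list, 30 of 90 doxycycline-only and 1 of 112 DMSO-only regions had it.

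**Figure D4:**
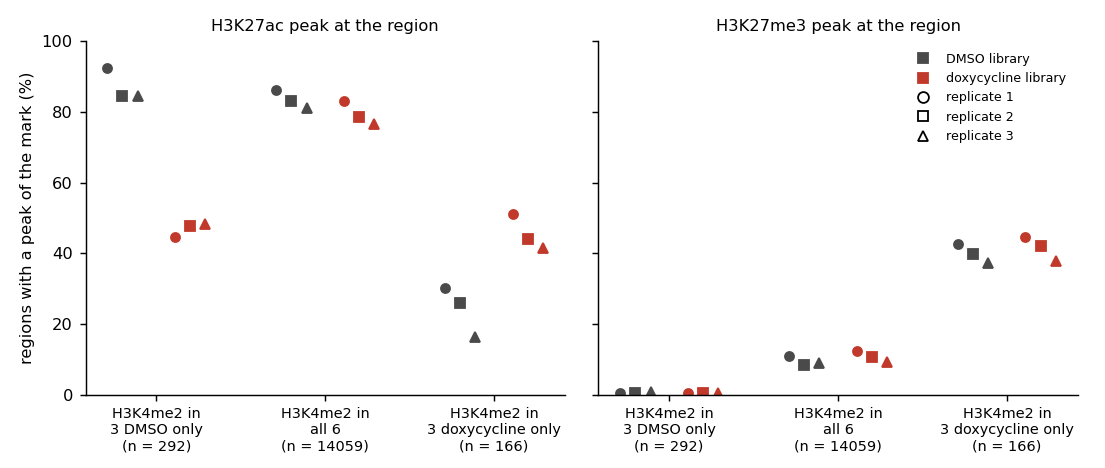
Share of H3K4me2 regions away from start sites (%) with a peak of H3K27ac (left) or H3K27me3 (right), for regions with H3K4me2 in the 3 DMSO libraries only, in all 6, or in the 3 doxycycline libraries only. Each point is a library of the second mark, coloured by treatment. H3K27me3 lies at 0.342 to 0.685% over DMSO-only and at 37.3 to 44.6% over doxycycline-only regions.

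Short motifs were counted as well. In the 300 bases around the summit, AGATAA (the GATA motif, both strands) was found in 34.6% of DMSO-only, 7.23% of doxycycline-only and 12.1% of shared regions away from start sites. GGGCGG, a GC box, was found in 4.45%, 28.3% and 25.8%. CACGTG, the E-box of MYC proteins, was found in 1.03%, 11.4% and 6.28%. CATCTG, an E-box of the kind HAND2 and its partners can bind, was present in 23.6%, 22.9% and 24.4%, and TGTGGT, a RUNX motif, in 15.4%, 19.3% and 16.5%. CACGTG and CATCTG are both E-boxes and differ only in their central bases, and a match is a description of the sequence and not a binding site. The 3 sets differed in GC content, as given above, and no background of matched composition was counted. The part of base composition in these shares was not tested.

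The share of distal H3K4me2 peaks that lay on Polycomb-marked chromatin was then measured in every library against a fixed set of 21288 regions with H3K27me3 in 3 of 3 DMSO libraries. It was 5.69, 6.77 and 5.62% in DMSO and 9.77, 8.20 and 7.81% in doxycycline, so the groups did not overlap. Calling depth separated the treatments as well, and its part was not tested. This comparison was added after the data were seen. It uses the same peak calls as the counts above and is not independent of them. The difference was 2.57 percentage points (exact permutation p = 0.1, which is the limit of the design, and 0.2 adjusted over 4 values). With all lists cut to the length of the shortest, the values were 7.10, 6.88 and 6.01% and 10.5, 8.20 and 8.57% (exact permutation p = 0.1, adjusted p = 0.2). Without doxycycline replicate 1 the difference was 1.98 points. For a fixed set of 39263 regions with H3K27ac in DMSO, the shares were 56.2, 75.7 and 78.5% and 53.3, 74.1 and 69.8%, which overlapped (exact permutation p = 0.5).

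Against the H3K27ac list of the same treatment and number, 70.1, 80.0 and 78.1% of distal H3K4me2 peaks in DMSO carried H3K27ac, and 62.3, 75.5 and 66.9% in doxycycline. The difference was −7.79 points (exact permutation p = 0.2, adjusted over 11 values p = 1). For H3K4me1 the mean share was 96.6 ± 1.44% and 95.1 ± 0.727% (exact permutation p = 0.2, adjusted p = 1). The matching shares with H3K27me3, added after the data were seen, were 6.64, 5.91 and 4.86% and 12.5, 8.93 and 7.20%, again without overlap (exact permutation p = 0.1, adjusted over 9 values p = 0.6).

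The third comparison asked which of the 30692 regions called in all 6 libraries changed their rank or width. By fold enrichment 1 region passed (0.00326% of those tested), the one near FOXD2 shown above. It lay 5.93 kb from the FOXD2 start on chromosome 1 from 47443972 to 47445507, in intergenic sequence of 57.3% GC. Its fold enrichment was 6.17, 3.23 and 2.18 in DMSO and 23.3, 9.64 and 13.3 in doxycycline. It stood at the 11.7th, 2.85th and 0.210th percentile in DMSO and at the 80.6th, 77.9th and 91.0th in doxycycline. The groups did not overlap on either scale. The difference was 2.97 ± 0.423 (SE) normal scores, limma adjusted p = 0.0127. Replicates 1 and 3 of a treatment may share an input, which this test does not take into account. H3K27me3 and H3K4me3 were called there in 6 of 6 libraries and H3K27ac in none. The call passed in 8 of 17 alternatives, with limma adjusted p from 0.00182 to 0.428. Among them were 0.0515 ranked within 5 GC classes and 0.0775 without doxycycline replicate 1. Here and below, alternatives in which a region was not in every list were not counted, so the totals differ. The start window of 2.5 kb was counted, but it does not enter the limma test and repeats the main result. Leaving out the MYCN locus kept 30599 of the 30692 regions and gave the same numbers past the test.

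By pileup, the height of fragment coverage, 21 regions passed (0.0684%), 14 higher in doxycycline (0.0456%) and 7 lower (0.0228%). The count was 39 without doxycycline replicate 1, 7 without DMSO replicate 1, DMSO replicate 2 or doxycycline replicate 2, 13 without doxycycline replicate 3, and 0 with plain ranks, the mean over peaks or no intensity trend. By fold enrichment it was 12 without DMSO replicate 2 and 0 without DMSO replicate 3 or any of the doxycycline libraries. The pileup is not corrected for input. In fold enrichment 19 of the 21 differed in the same direction, none past the threshold. The first in significance among the higher start-site regions was CCND2, which encodes cyclin D2. Its region, on chromosome 12 from 4270669 to 4275239, stood at the 44.7th, 64.9th and 59.9th percentile of pileup in DMSO and the 94.4th, 92.1st and 96.3rd in doxycycline (difference 1.43 ± 0.169 normal scores, limma adjusted p = 0.000737). The doxycycline libraries were all above the DMSO ones. It passed in 14 of 19 alternatives, and not when ranked within GC classes (limma adjusted p = 0.0559).

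The other start-site regions that rose in rank were those of PAX2, a transcription factor of kidney and midbrain development (1.00, limma adjusted p = 0.0241), BAIAP2, an organizer of the actin cytoskeleton (0.84, 0.0479), and ATAD3B, a mitochondrial protein (0.77, 0.0483). These 3 passed in 6 of 19, 6 of 19 and 5 of 20 alternatives, and none did when ranked within GC classes. Those that fell were PLXNA4, a semaphorin receptor of axon guidance (−1.13, 0.000766), ME3, a mitochondrial malic enzyme (−1.01, 0.0109), TRIM71, a regulator of stem cell RNA (−0.99, 0.0379), and CELF5, a neuronal splicing factor (−0.92, 0.0385). They passed in 15 of 19, 9 of 20, 7 of 19 and 6 of 19 alternatives, and PLXNA4 alone of these 4 did within GC classes. PLXNA4 stood at the 99.5th to 99.6th percentile in DMSO and at the 92.1st to 95.1st in doxycycline. Its direction reversed, to 0.29, when the mean over the peaks of a region was used in place of the highest.

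Away from start sites the largest rise was in an intron of PYGB, brain glycogen phosphorylase, on chromosome 20 from 25251061 to 25256095. It went from the 13.4th, 11.8th and 4.03rd percentile in DMSO to the 69.8th, 73.0th and 61.0th in doxycycline (1.82 ± 0.224, limma adjusted p = 0.000766). The next were in PREX1, a guanine exchange factor (1.34, 0.0369), in CCDC140 next to PAX3, a neural crest transcription factor (1.28, 0.0272), 14.9 kb from TTLL10 (1.21, 0.000472), and in PAX2 56.4 kb from its nearest start (1.07, 0.0479). PYGB passed in 14 of 18 and TTLL10 in 17 of 20 alternatives, and the other 3 in 3 to 6 of 18 or 19. The 3 that fell were an intergenic region 28.6 kb from NFAM1 (−1.53, 0.00685), an intergenic region 15.6 kb from GRAPL (−1.45, 0.000737) and a region over 2 noncoding RNAs 61.7 kb from FCGR2A (−1.38, 0.000472). For TTLL10 the difference in rank of fold enrichment had the opposite sign, −0.76, and for GRAPL it was 0.16.

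Of the 14 regions that rose in pileup, 8 had H3K27me3 in 3 of 3 DMSO libraries, and the same 8 had H3K27ac in none of them. They were those at CCND2, PAX2, TTLL10, PAX3 and 4 more. At TTLL10 and at ISG15, a ubiquitin-like protein of the interferon response named after its values were seen, H3K27ac was called in 3 of 3 doxycycline libraries, and at the other 6 in none. Of the 7 that fell, 1 had H3K27me3 and 6 had H3K27ac in 3 of 3 DMSO libraries. Over all 30692 regions, 9.66% had H3K27me3 and 82.9% had H3K27ac. The 14 had a median GC content of 60.2% and the 7 of 58.1%, against 53.5% over all. Ranked within 5 GC classes, an alternative chosen after seeing the data, 7 regions passed in place of 21, 2 higher and 5 lower. These counts are given without a test of their difference.

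No region passed the test of width by limma (0% of 30692), with 1942 at an unadjusted p under 0.05. Among those with the smallest p, which failed the test, were regions in introns of ITPR1 (−2.11 on the log2 scale, limma adjusted p = 0.313) and BCAR3 (−1.83, 0.313). At an unadjusted p under 0.05, 1868 regions were higher and 1701 lower by rank of fold enrichment, and 1807 and 1884 by rank of pileup.

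The widest regions were looked up after their values were seen, and a few are named here. The widest of all covered TBX2, a T-box factor of adrenergic neuroblastoma, with a mean summed peak width of 28066 bp in DMSO and 30618 bp in doxycycline (log2 difference 0.043 after centring, limma adjusted p = 0.993). The next in order were a cluster of 5S ribosomal RNA genes 86.8 kb from RHOU (24050 and 25998 bp) and an intron of UNC5B (19914 and 25577 bp). SAMD11 (20455 and 23754 bp) and KIF26A (16119 and 20915 bp) followed. Among those further down, of which others are not named, GATA2 had 17333 and 19324 bp, GATA3 17517 and 18832 bp and CYB561 15935 and 16315 bp. RARA, a retinoic acid receptor, had 15032 and 17081 bp, and DBH, which makes noradrenaline, 13929 and 15940 bp. Each was far above the median of 1867 bp for the start-site regions shared by all 6 lists. These widths were not centred, and DMSO replicate 3 had the narrowest peaks. After centring, the log2 differences of the named regions ranged from −0.058 at CYB561 to 0.314 at KIF26A. None of the named regions passed, with limma adjusted p from 0.882 to 0.993.

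Over all shared regions the difference in rank varied with base composition and with the state of H3K27. The regions were divided into 5 classes of equal size by GC content. The median difference in rank of fold enrichment was −0.23, −0.021, 0.066, 0.085 and 0.088 normal scores from the lowest class (31.5 to 46.7% GC) to the highest (60.1 to 88.6%). In width it was −0.22, −0.051, 0.0092, 0.046 and 0.072 on the log2 scale. In doxycycline replicate 1 the median width of the lowest class was −0.80 relative to its own median, against −0.29 to −0.067 in the other 5 libraries. The difference between the highest and lowest class was 0.271 ± 0.202 in DMSO and 0.605 ± 0.427 in doxycycline (exact permutation p = 0.4), a gap of 0.334 that fell to 0.0912 without that library. The same gap in rank of fold enrichment was 0.27 and fell to 0.043 without it (exact permutation p = 0.4). By rank of pileup it was 0.086 (exact permutation p = 1) and −0.093 without that library, and the medians of the 5 classes were −0.059, 0.022, 0.026, 0.013 and −0.00075.

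Regions with H3K27me3 in 3 of 3 DMSO libraries, 2965 in all, were described next. Away from start sites 1052 of them had a median difference of 0.25 in rank of fold enrichment, and 66.3% were higher in doxycycline, against 0.019 and 51.4% over all 14059 regions. At start sites 1913 had 0.13 and 58.7%, against −0.027 and 47.8% over all 16633. Regions with H3K27ac and no H3K27me3 had −0.0094 away from and −0.051 at start sites. H3K27me3 regions had a median GC content of 62.7% against 53.5% over all, so they also fell in the GC classes with higher differences. Within each of the 5 GC classes their median was above that of H3K27ac regions, at 0.029 against −0.24 in the lowest class (23 regions) and 0.18 against 0.040 in the highest (2030 regions). Regions with neither mark were also above H3K27ac regions in each class, and in the middle class above H3K27me3 regions, at 0.13 against 0.12.

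Set against the other regions of the same library and centred within GC classes, H3K27me3 regions were −0.064, −0.090 and −0.10 normal scores in DMSO by fold enrichment. In doxycycline the values were 0.068, −0.024 and 0.021. The groups did not overlap, and the difference was 0.11 (exact permutation p = 0.1, again that limit, and 0.225 adjusted over 9 values). In each treatment the inputs of replicates 1 and 3 had identical read totals, so the libraries of a treatment may not be independent. A difference between the inputs of the 2 treatments cannot be told apart from one in the mark. By pileup the means were −0.12 ± 0.013 and −0.048 ± 0.029, and in width −0.32 ± 0.0080 and −0.25 ± 0.033 on the log2 scale (SD, n = 3 libraries). Neither overlapped (exact permutation p = 0.1 and adjusted p = 0.225 each). Without the centring the groups overlapped for fold enrichment (difference 0.17, exact permutation p = 0.3, adjusted p = 0.45). They also overlapped for pileup (0.073, exact permutation p = 0.2, adjusted p = 0.36). For width they did not (0.17, exact permutation p = 0.1, adjusted p = 0.225). These comparisons were chosen after seeing the data. Leaving out each library in turn kept the sign of all 3 centred differences, at 0.085 to 0.13 by fold enrichment, 0.065 to 0.092 by pileup and 0.060 to 0.092 in width.

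**Figure D5:**
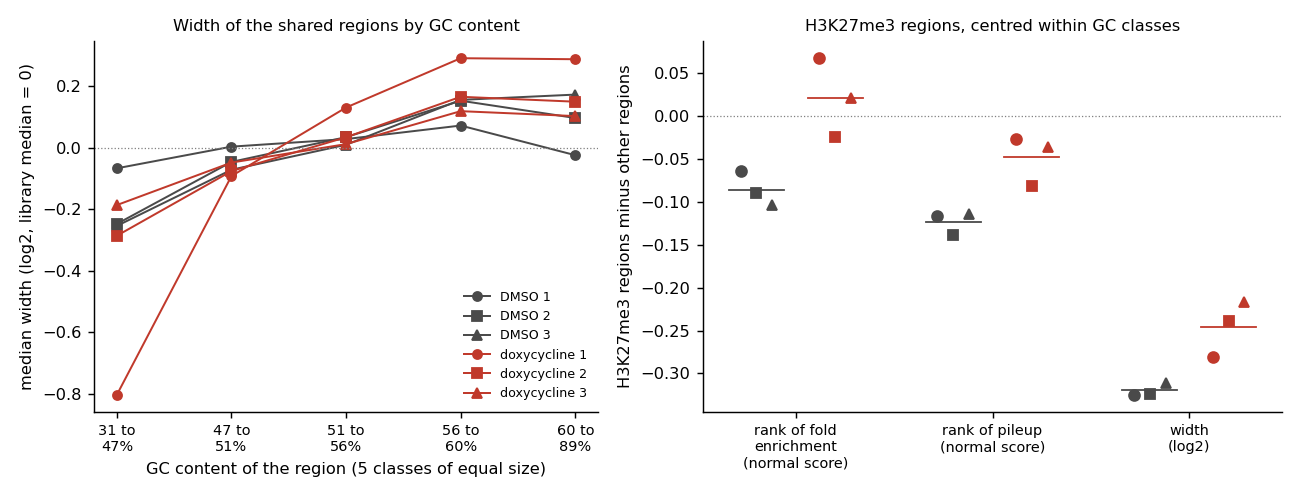
Left, median width (log2, library median set to 0) of the H3K4me2 regions shared by all 6 lists in 5 classes of GC content, with a line per library. Right, median of H3K27me3 regions minus that of other regions after centring within GC classes, a point per library and a line at the mean of 3. Doxycycline replicate 1 drops to −0.80 in the lowest GC class, and the doxycycline points lie above the DMSO points in each of the 3 measures.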

How the data were processed

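H3K4me2 was profiled in 3 DMSO and 3 Doxycycline libraries, grouped by the labels. The members and gene lists were chosen with earlier results of these data known. The authors aligned reads to hg38 with Bowtie2, kept those of mapping quality of at least 30 and called peaks per library with MACS2 2.1.1.20160309 against an input. Per the file headers, H3K4me2 was called in narrow mode at p 1e-05, single-ended, with tags of 101 bp, whereas the study's methods give a q threshold. In both treatments the inputs used for replicates 1 and 3 had identical read totals. The deposited pileup is fragment coverage (signal), fold enrichment, also deposited, is the ratio of ChIP over local input, and significance was deposited as a −log10 p-value with its −log10 q-value. MACS2 scaled down whichever of ChIP and input was larger, so all these values depend on depth and input. Tests of pileup and fold enrichment therefore used ranks within a list, and fold enrichment printed per library is a description. Peak numbers and widths, which can also depend on depth, were tested without ranking.

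Peaks of the 6 lists were merged where they shared 1 bp. Gene annotation was GENCODE release 44. Regions in all 6 lists were tested with limma 3.58.1 in R 4.3.3 with an intensity trend and Benjamini-Hochberg adjustment at 0.05, on normal scores of rank, or on log2 width centred on the median of the library. For library values a two-sided exact permutation test over 20 assignments was used, with adjustment within each family. Python 3.11.15, numpy 2.4.6, pandas 2.3.3, scipy 1.17.1 and pysam 0.24.0 were used. Interval functions were checked against bedtools 2.31.1 and the limma step was tested on simulated data. Named items were 8 genes of the study's model, list members past a test, and the 5 highest per direction and place. They were, for presence, highest by mean percentile of fold enrichment and, for limma, by size of difference. Where no region passed, the rule took the 3 with the smallest p. Some items that the rule or the lists take are not reported here. Markers of liver, blood, skeletal muscle, melanocyte and epithelium were looked up as well: 4 of 6, 2 of 6 and 2 of 6 of the last 3 lists had the mark in all 6 libraries. Alternatives covered the peak threshold, list length, the MYCN locus, start window, libraries, replicate block, overlap, consensus and ranking. Inputs entered only through the calls.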

Additional observations from a re-analysis of the deposited data

How the results depend on the processing

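Depth and list length limit what could be seen: a region without a peak may hold the mark below the threshold of the caller, and with 3 libraries a treatment no library value could reach an exact p under 0.1. Of 416 recomputed values for 22 named regions, 193 kept direction and side of the threshold and 222 kept direction and lost the threshold. The remaining 1, PLXNA4, reversed to 0.29 with the mean over peaks. The 193 include the start window of 2.5 kb, which does not enter the limma test and could not change it. The cause was not tested for any change below.

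Only peaks with −log10 q of 10 or more gave a difference of −1.02 points in the share at start sites, 112 DMSO-only and 90 doxycycline-only regions away from start sites, and 0 regions by fold enrichment. Lists of equal length gave −0.0027 (log2) for peaks away from start sites, 24 and 74 start-site and 476 and 500 other DMSO-only and doxycycline-only regions, 4 and 29 genes, and 0 by fold enrichment. A window of 2.5 kb gave −0.0061 for peaks away, 23 and 35 start-site regions and 1 DMSO-only gene. An overlap of 50% gave 0.052 for the start-site consensus, 2 and 6 start-site and 42 and 31 other regions, 0 by fold enrichment and 4 by pileup. A consensus of 2 of 3 libraries gave −0.038 away from start sites. By fold enrichment and pileup, 8 and 6 regions passed with percentiles of the whole list, 2 and 0 with the mean over peaks, 2 and 0 without a trend, 0 and 0 with plain ranks, and 0 and 7 within GC classes.

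Leaving out 1 library or 1 replicate number at a time gave log2 differences of −0.028 to 0.076 (start-site peaks), −0.32 to 0.35 (other peaks), −0.16 to 0.27 and −0.11 to 0.19 (their widths), −0.0024 to 0.054 (genes), −0.16 to 0.23 and −0.47 to 0.51 (consensus at and away from start sites). It gave −4.99 to 5.53 points for the share at start sites, −3.01 to 0.719 for the rank gap, −11.4 to −4.81 for H3K27ac and −2.04 to −0.659 for H3K4me1. DMSO-only regions numbered 13 to 99 at and 305 to 1494 away from start sites, doxycycline-only ones 19 to 302 and 166 to 2049, and genes 0 to 10 and 6 to 91. By limma 0 to 12 regions passed by fold enrichment, 6 to 100 by pileup and 0 to 2 by width.

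With the replicate number as a block, 0 regions passed by fold enrichment and 12 by pileup. At the regions shared by all 6 lists, the correlation of deviations from the treatment mean was computed between same-numbered libraries. The values were −0.045 to 0.093 by fold enrichment, −0.0014 to 0.064 by pileup and 0.037 to 0.24 in width. These correlations do not cover list length, in which replicate 1 of both treatments stood apart, with 88427 and 86420 peaks. Whether the numbers mark pairs was therefore not settled.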
